A study of Mus musculus with 3 samples.

Results

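The chemokines and chemokine receptors described here are the rows of the deposited expression table whose gene symbol begins with Ccl, Cxcl, Xcl, Cx3cl, Ccr, Cxcr, Xcr, Cx3cr or Ackr followed by a number and at most 1 letter. They numbered 61 of the 24346 genes of the table, with 39 ligands, 18 signalling receptors and 4 atypical receptors. The samples were endothelial cells (ECs) of the adult lung, taken fresh from male wild-type C57BL/6J mice of 6 to 8 weeks and not treated apart from an antibody to VE-cadherin that was injected into the circulation to label ECs before the lungs were digested. Cells positive for CD31 and VE-cadherin and negative for CD45 (a leukocyte antigen) and podoplanin (a lymphatic EC antigen) were sorted, so the fraction is defined by surface antigens and can hold other cells that pass the gate. The 3 libraries (the authors' samples S38, S44 and S52) belong to 1 condition, the lung arm of a comparison between organs, and nothing in the labels says whether they came from separate mice. Values are FPKM, fragments scaled to transcript length and library size, so that levels of different genes can be set side by side. Where 3 values are given together, they stand in the order S38, S44, S52. With 1 condition there was no contrast to test, and an exact sign-flip test over 3 libraries cannot go below a two-sided p of 0.25. The spread between libraries is therefore given as a description.

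Chemokines are small secreted proteins that guide leukocytes through G protein-coupled receptors, and they are named CC, CXC, XC or CX3C after the spacing of their cysteines. ECs hold chemokines on the heparan sulfate of their surface, where passing leukocytes meet them. *Cx3cl1* and *Cxcl16* differ from the rest in that they encode ligands anchored in the membrane. Atypical receptors (Ackr) bind chemokines without classical G protein signalling and act mainly by taking them up.

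Depth was estimated from the steps between low FPKM values at 37800000, 39300000 and 34300000 fragments. The endothelial markers were even in their median, which over 10 genes was 378, 393 and 379 FPKM. None of the 10 differed by over 2-fold between libraries. Single markers were less even, such as *Erg* at 59.2, 43.1 and 84.8 FPKM and *Kdr* at 380, 360 and 237 FPKM. Of the 10, 2 were lowest and 4 highest in S52. Library S52 stood apart in several lists, most of them of other cells. Platelet genes summed to 472, 426 and 29.3 FPKM, and all 6 were over 2-fold lower in S52 than in both other libraries. Genes of the alveolar type 2 cell, the surfactant-making epithelial cell, summed to 3756, 3156 and 760 FPKM (4 of 5 lower), and airway genes to 2779, 2316 and 407 FPKM (3 of 5 lower). Of the pan-leukocyte genes 4 of 5 were lower in S52, with a median of 16.1, 8.91 and 1.96 FPKM. Fibroblast, mural and dendritic cell genes had no call lower in S52, with mural genes at a sum of 115, 60.2 and 111 FPKM. Some EC genes outside the list of 10 were also lowest in S52. The venous gene *Slc6a2*, at 69.4, 81.7 and 23.2 FPKM, was over 2-fold lower than in both other libraries. The capillary gene *Ednrb*, at 143, 155 and 75.3 FPKM, fell short of that call. In bulk RNA, fewer cells of a type and less RNA per cell cannot be told apart.

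A gene counted as detected when the mean over its libraries reached 1 FPKM. By this rule 30 of the 61 members were detected (49.2%), beside 48.3% of all genes of the table, so the family as a whole was detected about as often as any gene. Ligands made up most of these members. Among the ligands, 23 of 39 were detected (59.0%), with 13 of 24 CC ligands, 9 of 13 CXC ligands and *Cx3cl1*. Only 4 of 18 signalling receptors reached the level, namely *Cxcr4*, *Ccr7*, *Cxcr2* and *Cxcr5*. Of the atypical receptors 3 of 4 did. A further 7 members (11.5%) were listed at 0 in all 3 libraries, beside 29.5% of all genes. These were *Ccl1*, *Ccl20*, *Ccl21b*, *Ccl21c*, *Ccl26*, *Ccl27b* and *Ccr8*.

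The summed level of the 61 members was 659, 687 and 581 FPKM (643 ± 55.2, SD, n = 3). A handful of genes carried it. *Ackr3* alone held 23.9% ± 4.11 (SD, n = 3) of the sum, the 5 highest members 65.9% ± 2.16 and the 10 highest 85.3% ± 4.84. The median member, in contrast, was at 0.987 FPKM. When the detected members were ordered by their means, only 3 of the 29 neighbouring pairs had ranges over the libraries that did not overlap. These were *Ackr3* above *Cxcl12*, *Cxcl12* above *Cx3cl1*, and, by a margin lost on rounding (both 24.5 FPKM), *Cxcl10* above *Ackr4*. The ranges of the other pairs overlapped, although 1 of them, *Cxcl14* above *Ccl5*, kept its order in every library. Overlap over 3 libraries cannot decide whether the levels form groups, since S52 widens many of the ranges.

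**Figure D1:**
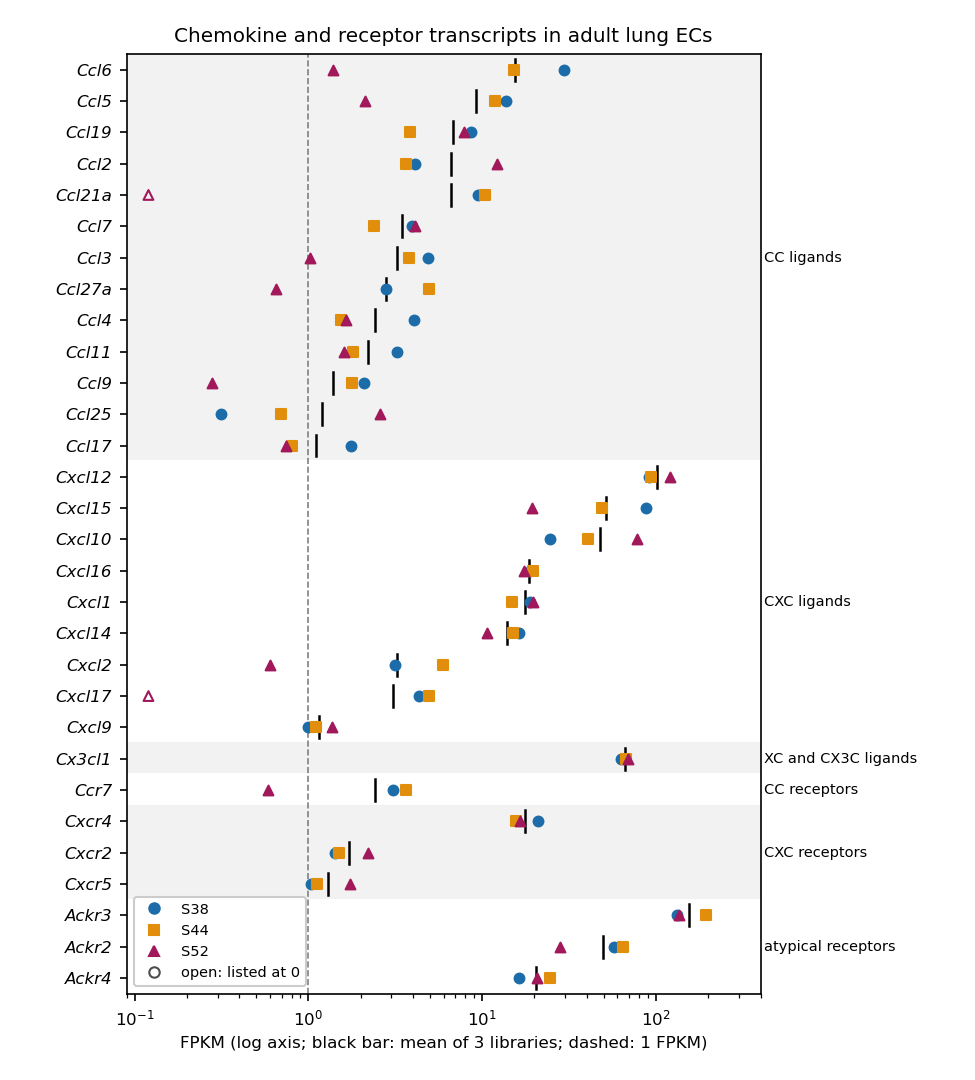
Level of the 30 detected members in each library (FPKM, log axis), by family role, with the mean as a black bar and open marks for values listed at 0. The highest members, *Ackr3*, *Cxcl12* and *Cx3cl1*, lay close together in the 3 libraries, whereas the S52 mark (triangle) of 11 members lay over 2-fold below both others, with *Ccl21a* and *Cxcl17* listed at 0 there.

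Among the CXC ligands, *Cxcl12*, the homeostatic ligand that retains leukocytes and progenitors and guides growing vessels, was the highest at 91.6, 93.9 and 120 FPKM (102 ± 15.8, SD, n = 3). It exceeded 96.4% of all genes of the table. *Cxcl10*, an interferon-induced ligand of CXCR3, a receptor of activated T cells, was at 24.5, 40.6 and 78.1 FPKM (47.7 ± 27.5, SD, n = 3). Its value in S52 was the highest of the 3 and 3.18-fold that in S38, and its 1.92-fold excess over S44 fell short of the 2-fold limit. *Cxcl9*, the other interferon-induced ligand of this receptor, was near the detection limit at 0.996, 1.10 and 1.37 FPKM. The libraries were in the same order as for *Cxcl10* but within 1.34-fold of each other. *Cxcl11* was at 0.534 FPKM in S38 and listed at 0 in S44 and S52, and the GENCODE annotation gives it the biotype polymorphic pseudogene in this reference genome.

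The neutrophil-attracting CXC ligands, which act through CXCR2, were unequal. *Cxcl1* was at 18.8, 14.9 and 19.5 FPKM (17.7 ± 2.52, SD, n = 3), within 1.31-fold across libraries. *Cxcl2*, next to it on the chromosome, was at 3.15, 5.92 and 0.604 FPKM. It was thus 4.62-fold and 8.56-fold lower in S52 than in the others on the scale of FPKM + 0.1, which understates folds of low genes and is used for all folds between libraries here. *Cxcl3* was listed at 0 in S38 and S52 and at 0.329 FPKM in S44, and *Cxcl5*, an epithelial ligand, at 0.807, 1.39 and 0 FPKM. *Cxcl15*, known as lungkine and made by lung epithelium, was at 87.6, 49.0 and 19.3 FPKM. It was left out of the CXCR2 pairing described below. It was the fourth highest member by its mean, and it lay below *Cxcl10* and *Ackr2* in S52. The alveolar type 2 and airway sums given above were likewise lowest in S52, and their part in its level was not tested.

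The 3 ligand genes *Cxcl1*, *Cxcl2* and *Cxcl3* were compared at their promoters because they lie in 1 run on chromosome 5 and act through the same receptor but differed in level. They are shown because all 3 hold the motif described here. *Cxcl5* and *Cxcl15* of the same run are not among the members found to hold it, and not every member had a promoter entry. Promoters were RefSeq sequences of GRCm38.p6, from 250 bases before to 50 bases after the start of the gene, and 45 of the 61 members matched an entry. Each was searched on both strands for the NF-kappaB motif, the binding motif of the factor that inflammatory signals activate. The motif stood in 10 of 45 member promoters (22.2%) and in 1388 of 27025 promoters in all (5.14%). All 3 of these genes held it with the same 10 bases, shown in capitals in windows of 30 bases read 5′ to 3′ on the strand of the gene (plus). The motif is close to a palindrome, so a match on the other strand, shifted by 1 base, overlaps each of these and was not counted again. The windows lie at chr5:90891164-90891193 (*Cxcl1*), chr5:90903792-90903821 (*Cxcl2*) and chr5:90786018-90786047 (*Cxcl3*), and the motif begins at -71, -97 and -73, counted from the start of the gene with the base before it as -1.
Cxcl1: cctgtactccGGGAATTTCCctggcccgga
Cxcl2: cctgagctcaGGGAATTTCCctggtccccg
Cxcl3: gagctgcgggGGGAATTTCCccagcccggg
With the same capitals, mean levels were 17.7 FPKM for *Cxcl1*, 3.23 FPKM for *Cxcl2* and 0.11 FPKM for *Cxcl3*. A match of letters is a description and not evidence of binding. Among members at 1 FPKM or above with a promoter entry 6 of 21 held the motif (28.6%), and among those below 1 FPKM 4 of 24 (16.7%).

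*Cxcl10* was the only member whose promoter held both motifs that were searched. It held 2 NF-kappaB motifs and the interferon-stimulated response element (ISRE), searched as GAAA, any 2 bases and GAAA on both strands. The ISRE stood in 3 of 45 member promoters (*Ccl19*, *Cxcl10* and *Cxcl14*, 6.67%) and in 1079 of 27025 promoters (3.99%). The windows lie on the minus strand at chr5:92349083-92349112 (ISRE, beginning at -213), chr5:92349029-92349058 and chr5:92348973-92349002 (NF-kappaB, beginning at -159 and -103). The motifs, in capitals, do not overlap.
Cxcl10 ISRE: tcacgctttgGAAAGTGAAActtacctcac
Cxcl10 distal NF-kappaB: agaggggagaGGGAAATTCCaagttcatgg
Cxcl10 proximal NF-kappaB: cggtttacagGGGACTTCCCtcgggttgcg
Its level of 47.7 FPKM was the highest among the members with an ISRE, beside 14.0 FPKM for *Cxcl14* and 6.80 FPKM for *Ccl19*.

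The remaining CXC ligands fell in a narrow and in a variable set. *Cxcl16*, which encodes the membrane-anchored ligand of CXCR6, was the most even with 18.8, 19.5 and 17.3 FPKM (18.5 ± 1.10, SD, n = 3), and *Cxcl14*, a homeostatic ligand of epithelia, was at 16.3, 15.1 and 10.6 FPKM. *Cxcl17*, a mucosal ligand of the airways, was at 4.31 FPKM in S38 and 4.94 FPKM in S44 and listed at 0 in S52, where a count of 0 allows up to 0.148 FPKM (3 fragments at the estimated depth, counting error only). *Cxcl13*, the B cell ligand, stayed below 1 FPKM in every library.

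*Cx3cl1*, which encodes fractalkine, was at 62.8, 67.5 and 69.3 FPKM (66.5 ± 3.35, SD, n = 3). With a coefficient of variation of 5.04% it was the least variable of the detected members. *Xcl1*, the only gene of the XC ligands in the table, was at 0.0759 FPKM in S44 and listed at 0 in the other libraries.

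The CC ligands were lower and less even. Together the 24 genes summed to 92.0, 65.2 and 36.8 FPKM, whereas the 13 CXC ligands summed to 268, 247 and 267 FPKM. The inflammatory ligands *Ccl3*, *Ccl4*, *Ccl5*, *Ccl6* and *Ccl9*, which are made by myeloid cells, T cells, NK cells and platelets among others, made up much of the first sum in S38 and S44 but not in S52. *Ccl6*, a macrophage and neutrophil product, was at 29.7, 15.2 and 1.38 FPKM, 20.2-fold and 10.3-fold lower in the last library. *Ccl5* (RANTES) was at 13.7, 11.9 and 2.13 FPKM. *Ccl3* was at 4.86, 3.80 and 1.02 FPKM. S52 was the lowest library for these 3 ligands and lay outside the range of the others.

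*Ccl9* behaved alike at 2.08, 1.79 and 0.278 FPKM, but *Ccl4* did not, since it was at 4.07 FPKM in S38 and at 1.55 and 1.64 FPKM in S44 and S52. The 5 ligands of this group summed to 54.4, 34.2 and 6.45 FPKM, and 4 of the 5 were over 2-fold lower in S52. T and NK cell genes were low in S52 too, with a sum of 11.0, 11.9 and 0.464 FPKM and 5 of 7 genes (*Cd3e*, *Cd3g*, *Nkg7*, *Klrd1* and *Ncr1*) listed at 0 there. From S38 to S44, however, their sum did not fall as that of the ligands did. Neutrophil genes summed to 37.1, 48.4 and 3.44 FPKM (3 of 5 called lower in S52, *Mmp8* listed at 0). Monocyte and macrophage genes summed to 1069, 811 and 184 FPKM (1 of 8 called lower, *Lyz2*, with *Marco*, *Siglecf* and *Fcgr1* listed at 0). Nearly all of this last sum was *Lyz2*, at 1047 FPKM in S38 and 166 FPKM in S52. The other detected genes of the list, *Cd68* and *Csf1r*, were not called lower. *Cd68* was at 16.96, 27.41 and 16.67 FPKM, and *Csf1r* was lowest in S38. The part of T and NK cells, neutrophils, monocytes and macrophages in the levels of these ligands was not tested.

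Of the 3 ligands of CCR2, the receptor that draws monocytes, 1 was over 2-fold higher in S52. *Ccl2* (MCP-1) was at 4.09, 3.67 and 12.1 FPKM, 2.91-fold and 3.24-fold higher in S52. *Ccl7*, its neighbour on the chromosome, was at 3.93, 2.38 and 4.13 FPKM, so its S52 value lay only just above that of S38. *Ccl12* was at 0.208, 0.276 and 0 FPKM. *Ccl8*, in the same run of genes, was just under the detection limit with 1.41, 1.55 and 0 FPKM. *Ccl11* (eotaxin), a fibroblast and smooth muscle product that draws eosinophils, was at 3.24, 1.80 and 1.61 FPKM, and the other eotaxins, *Ccl24* and *Ccl26*, were at most at 0.0909 FPKM.

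Ligands known from lymphoid tissue and lymphatic vessels were detected at low levels. *Ccl21a*, the ligand by which lymphatic ECs draw dendritic cells and T cells that carry CCR7, was at 9.41 FPKM in S38 and 10.3 FPKM in S44 and listed at 0 in S52, where 3 fragments would give 0.125 FPKM. *Ccl19*, the other ligand of CCR7, was at 8.68, 3.82 and 7.90 FPKM, with S44 the lowest library. The values of both are uncertain, as 71.2% of the read-length windows (51 bp) of *Ccl21a* and 51.7% of those of *Ccl19* also occur in another annotated gene (*Gm21541* and *Gm2564*). For *Ccl21b* and *Ccl27b*, both listed at 0, the shares were 100% and 98.1%, so a value of 0 there may mean that no read was assigned. Of the 6 lymphatic EC genes, *Mmrn1* was at 19.4, 17.6 and 0.236 FPKM and was the only one called lower in S52, *Reln* was at or below 0.124 FPKM and listed at 0 in S52, and *Prox1*, the master factor of lymphatic ECs, was below 1 FPKM in all libraries (0.132, 0.173 and 0.598). The sum of the list, most of it *Lyve1*, was 585, 641 and 414 FPKM. Its part in the level of *Ccl21a* was not tested.

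*Ccl27a*, a skin and epithelial ligand of CCR10, was at 2.81, 4.98 and 0.650 FPKM, with 44.5% of its windows shared with other genes. *Ccl25*, the thymic and intestinal ligand of CCR9, was at 0.312, 0.695 and 2.57 FPKM. It was 6.48-fold higher in S52 than in S38 and, with *Ccl2*, was 1 of the 2 members called higher there. Its exons overlap by 204 bp those of *Elavl1* on the other strand, which was at 11.5 FPKM, and the libraries carry no strand information. *Ccl17*, a ligand of CCR4, was at 1.76, 0.806 and 0.743 FPKM, and *Ccl22*, the other, stayed under the limit with a mean of 0.771 FPKM.

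Of the signalling receptors, *Cxcr4*, the receptor of CXCL12, stood alone at 20.8, 15.7 and 16.4 FPKM (17.7 ± 2.78, SD, n = 3). *Ccr7*, the homing receptor of naive T cells and mature dendritic cells, was at 3.07, 3.64 and 0.582 FPKM, 4.65-fold and 5.48-fold lower in S52. *Cxcr2*, known from neutrophils and also from ECs, was at 1.42, 1.51 and 2.19 FPKM. *Cxcr5*, a B cell receptor, was at 1.04, 1.12 and 1.73 FPKM. Both were highest in S52, by at most 1.61-fold over the lowest library. The B cell genes summed to 22.5, 16.3 and 7.10 FPKM. The neutrophil genes were lowest in S52 by their sum, though not in *Csf3r*, which was at 0.302, 0.291 and 0.549 FPKM. The part of these cells in the levels of *Cxcr2* and *Cxcr5* was not tested. The exons of *Cxcr5* overlap by 110 bp those of *Bcl9l* on the other strand, which was at 8.85 FPKM.

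The other receptors were not detected. None of the other 9 CC receptors reached 1 FPKM in any library, and the highest, *Ccr1*, a myeloid receptor, had a mean of 0.378 FPKM. In S52 *Ccr7* was the only CC receptor with a value above 0, so that the sum of the 10 was 5.07, 5.15 and 0.582 FPKM. *Cxcr3*, the receptor of CXCL9 and CXCL10, was at 0.0543 FPKM in S38 and listed at 0 in the others. *Cx3cr1*, the fractalkine receptor of monocytes, was at 0.0951, 0.0782 and 0.531 FPKM. *Xcr1*, a dendritic cell receptor, was at 0.459, 0.381 and 0.356 FPKM.

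The atypical receptors were the highest group per gene. *Ackr3* (also called CXCR7), which takes up CXCL12, was at 133, 195 and 135 FPKM (154 ± 34.9, SD, n = 3) and exceeded 97.6% of all genes. *Ackr2*, which takes up inflammatory CC chemokines and is known from lymphatic ECs, was at 57.1, 64.3 and 28.1 FPKM, 2.03-fold and 2.28-fold lower in S52. *Ackr4*, which takes up the CCR7 ligands and CCL25, was at 16.3, 24.5 and 20.6 FPKM (20.5 ± 4.09, SD, n = 3). *Ackr1*, the receptor that venular ECs use to carry chemokines across the wall, was the exception at 0.709, 0.283 and 1.32 FPKM, with a mean of 0.771 FPKM under the detection limit. Its exons overlap by 361 bp (25.7%) those of *Cadm3* on the same strand, which was at 0.233 FPKM. With 20.2% of its read-length windows shared with other genes, its value is less certain. The other venous EC genes of its list, *Vwf*, *Ephb4*, *Slc6a2*, *Selp* and *Nr2f2*, had means of at least 1 FPKM.

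Ligands were then set beside their receptors in 12 textbook pairings. In 8 of the 12 the signalling receptor was below 1 FPKM, and in 10 of 12 the ligand sum was above the receptor in every library. The exceptions were CXCL13 with *Cxcr5* and XCL1 with *Xcr1*. The sort left out cells positive for CD45, so cells that carry leukocyte receptors were selected against. Ligand sums took up to 4 genes and were set beside 1 receptor gene, so these counts are a description only. CXCL12 was the pairing with the highest receptor, and the ratio of *Cxcl12* to *Cxcr4* was 4.39, 5.98 and 7.30. Its atypical receptor *Ackr3* exceeded *Cxcr4* in all 3 libraries. Fractalkine stood for the opposite case, with *Cx3cl1* at 66.5 FPKM and *Cx3cr1* at 0.235 FPKM, and so did CXCL16, with 18.5 FPKM for the ligand and 0.349 FPKM for *Cxcr6*.

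For the ligands of CXCR3 (*Cxcl9* and *Cxcl10*) the sum was 48.9 FPKM and the receptor mean 0.0181 FPKM. For the CCR7 pairing the ligands summed to 13.4 FPKM, *Ccr7* was at 2.43 FPKM and the atypical *Ackr4* at 20.5 FPKM. For the CCR2 ligands *Ccl2*, *Ccl7* and *Ccl12* the sum was 10.3 FPKM, *Ccr2* was at 0.205 FPKM and the atypical *Ackr2*, which takes up CC ligands of this kind, at 49.8 FPKM. In the CCR7 and CCR2 pairings the atypical receptor was above the signalling receptor in every library, whereas *Ackr1*, in the CXCR2 pairing, was at 0.771 FPKM beside 1.71 FPKM for *Cxcr2*. FPKM values are of RNA, and neither protein nor the cell that makes each transcript is measured by them.

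**Figure D2:**
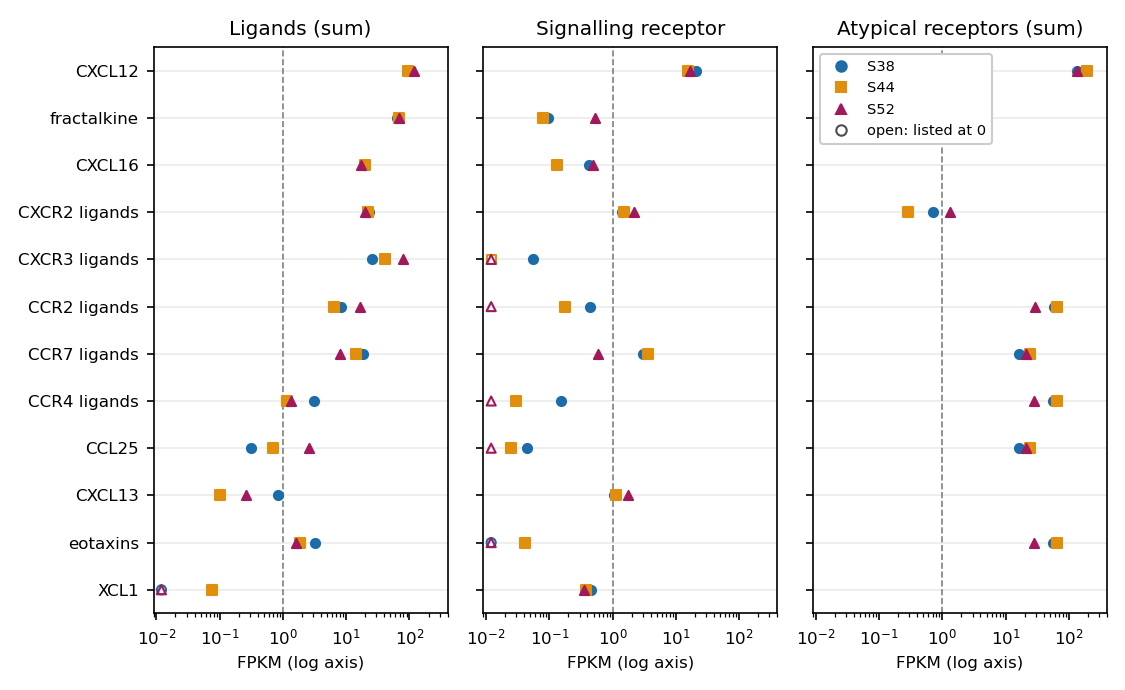
Summed ligand level, signalling receptor level and summed atypical receptor level in 12 pairings for each library (FPKM, log axes, dashed line at 1 FPKM, open marks listed at 0). Ligand sums of 10 pairings lay above the receptor in every library, 8 receptors had means below 1 FPKM, and *Ackr3*, *Ackr2* and *Ackr4* lay between 16.3 and 195 FPKM.

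The spread between libraries set the members apart from the table as a whole. Among the 30 detected members 17 (56.7%) differed by over 2-fold between their highest and lowest library, beside 19.3% of all detected genes. Library S52 accounted for most of this, since without it only 3 members (*Ccl4*, *Ccl17* and *Ccl19*) varied by over 2-fold (9.68%, beside 4.67% of all detected genes). Over 2-fold lower in S52 than in both other libraries were 11 of 30 (36.7%, beside 7.64% of detected genes), namely *Ackr2*, *Ccl3*, *Ccl5*, *Ccl6*, *Ccl9*, *Ccl21a*, *Ccl27a*, *Ccr7*, *Cxcl2*, *Cxcl15* and *Cxcl17*. Over 2-fold higher were *Ccl2* and *Ccl25*, 2 of 30 (6.67%, beside 1.58%).

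A gene that is high in S38 and S44 alone can pass the mean of 1 FPKM through them, so the count was also made over all 61 members with no minimum, where 19 (31.1%) were lower in S52, beside 8.13% of the whole table. At a mean of at least 10 FPKM 3 of 12 members (25%) were lower, *Ackr2*, *Ccl6* and *Cxcl15*, beside 3.51% of genes at that level. In S52 26 members (42.6%) were listed at 0, beside 40.8% of the table, compared with 12 in S38 and 10 in S44. In S52 alone 11 of the 61 (18.0%) were, beside 5.98% of the table. Most of the highest members varied little. Of the 10 highest, 7 (*Ackr3*, *Cxcl12*, *Cx3cl1*, *Cxcl16*, *Cxcl1*, *Cxcr4* and *Ackr4*) stayed within 1.50-fold over the libraries, while *Cxcl15* and *Ackr2* were lowest and *Cxcl10* highest in S52.

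In the plot of library ratios, several members low in S52 lay among the medians of the leukocyte, platelet and lung epithelial lists. These included *Ccl3*, *Ccl5*, *Ccl9* and *Ccr7*. *Ccl21a* and *Cxcl17*, listed at 0 in S52, lay below all plotted medians on both axes. *Ackr2* lay above the leukocyte, platelet and lung epithelial medians and below the endothelial, fibroblast and mural ones. The median log2 ratio of S52 to S38 was -3.89 for platelet genes, -3.04 for pan-leukocyte genes, -2.34 for alveolar type 2 genes and 0.10 for endothelial genes. *Cxcl15*, the lung epithelial ligand, was at -2.18 on that scale, and *Ccl5*, which T cells and platelets hold, at -2.63. *Ackr2* was at -1.02, near the limit of the call, and lost the call with a pseudocount of 1. Apart from the endothelial median, these values were all below 0, and the part of other cells in the member levels was not tested.

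**Figure D3:**
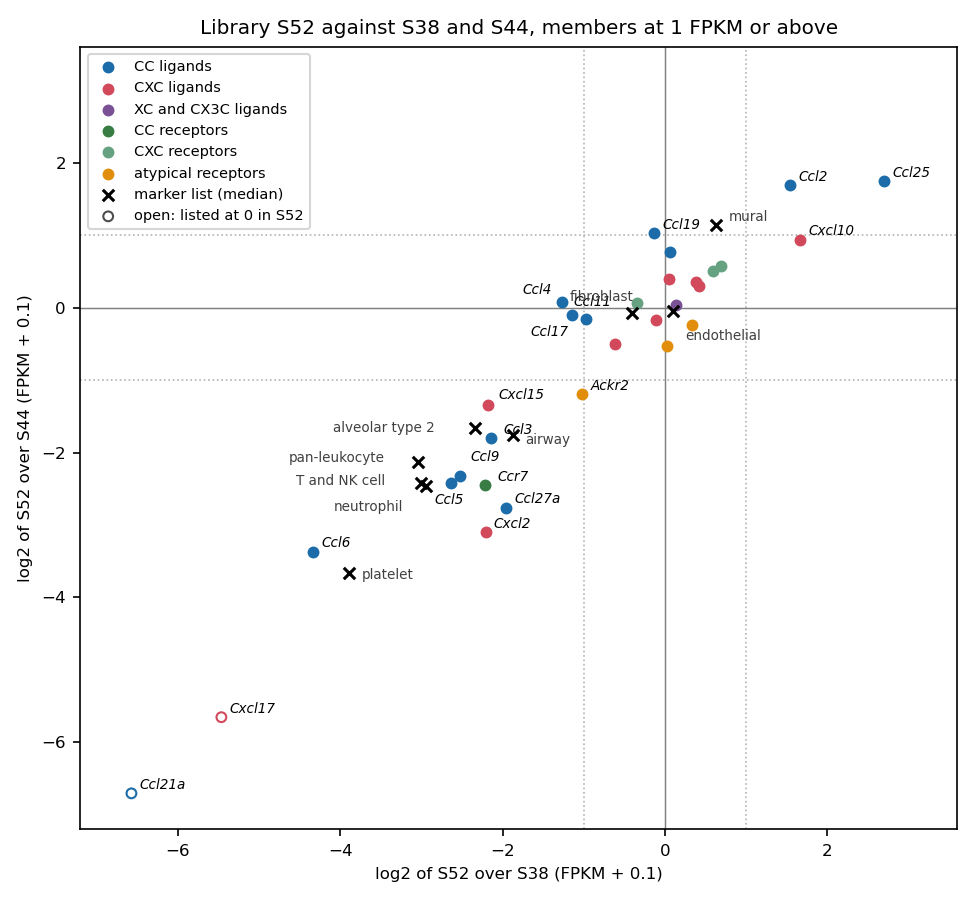
Log2 ratio of S52 to S38 (x axis) and to S44 (y axis), on FPKM + 0.1, for the 30 detected members (points, coloured by role) and the median of marker lists (crosses), with dotted lines at 2-fold. *Ccl21a* and *Cxcl17* (open) are listed at 0 in S52, so their place depends on the pseudocount of 0.1. A total of 11 members lay over 2-fold down on both axes and *Ccl2* and *Ccl25* over 2-fold up on both, while the endothelial list lay near 0.

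Many members lie side by side in the genome (GRCm38, GENCODE M21). Of 59 members with a position that are described here, 39 fell into 10 runs in which neighbours were at most 500 kb apart, and levels inside a run could differ widely. On chromosome 5 *Cxcl10* (chr5:92346638-92348889, minus strand) was at 47.7 FPKM between *Cxcl9* at 1.15 FPKM and *Cxcl11* at 0.178 FPKM, in a run of 44.1 kb. On chromosome 8 *Cx3cl1* (chr8:94772009-94782427, plus strand) was at 66.5 FPKM between *Ccl22* at 0.771 FPKM and *Ccl17* at 1.10 FPKM, in a run of 66.4 kb. The run of *Cxcl5*, *Cxcl3*, *Cxcl15*, *Cxcl1* and *Cxcl2* (147 kb) spanned 0.11 to 51.9 FPKM.

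Other runs differed in how many members were detected. All 5 members of the chromosome 11 run *Ccl5*, *Ccl9*, *Ccl6*, *Ccl3* and *Ccl4* (139 kb) were detected, at 1.38 to 15.4 FPKM, and 4 of the 5 were low in S52. The adjacent run on the same chromosome, *Ccl2*, *Ccl7*, *Ccl11*, *Ccl12*, *Ccl8* and *Ccl1* (270 kb), had 3 of 6 detected. In the receptor run of chromosome 9 (*Ccr9*, *Cxcr6*, *Xcr1*, *Ccr1*, *Ccr3* and *Ccr2*, 435 kb) none of the 6 genes described was detected, and the highest mean was that of *Xcr1* at 0.399 FPKM. The highest members lay outside the runs, *Ackr3* at chr1:90203980-90216751 and *Cxcl12* at chr6:117168535-117181367, both on the plus strand.

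**Figure D4:**
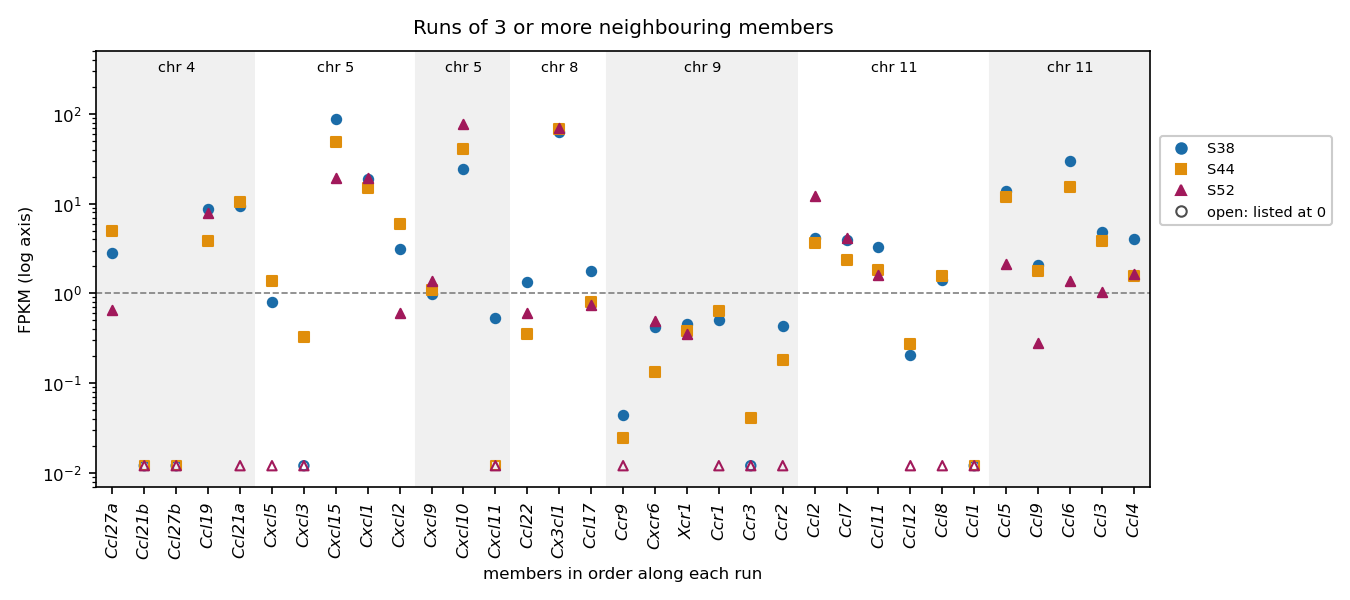
Level of each member (FPKM, log axis) in each library along the 7 runs of 3 or more neighbouring members, in chromosomal order, with open marks for values listed at 0 and a dashed line at 1 FPKM. *Cxcl10* and *Cx3cl1* stood far above their neighbours, the 6 receptors of the chromosome 9 run lay below 1 FPKM in every library, and 4 of the 5 genes of the right-hand chromosome 11 run were lowest in S52 by over 2-fold.

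Reads of a few detected members can be shared with overlapping genes. Without strand information, reads from *Cxcl16* and *Zmynd15*, which overlap over 552 bp of exon (18.3% of the exonic bases of *Cxcl16*), cannot be told apart there, nor those of *Ackr4* and *Acad11* (479 bp, 8.90%) or of *Cxcl10* and *Art3* (133 bp, 5.91%). The overlapping genes were at 3.61, 7.63 and 4.24 FPKM, each below the member it overlaps. *Ackr3*, *Cxcl12*, *Cx3cl1*, *Ackr2* and *Cxcl1* shared no read-length window with another annotated gene.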

How the data were processed

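Poly-A selected RNA of adult lung ECs was sequenced without strand information as paired reads of 51 bp. The table the authors deposited holds FPKM by gene symbol (genome mm10). Per the labels, the submitters' processing notes name bcl2fastq 2.17, FastQC 0.11.5, Trimmomatic 0.36, TopHat2 2.1.0 and Cufflinks 2.2.1, without their roles, and the gene annotation is not given in the sources used here. The study's methods describe STAR alignment and HTSeq counts for its own tests. The 3 libraries were used as deposited, with no rescaling and 0 per-sample columns left out, in Python 3.11.15 with pandas 2.3.3, numpy 2.4.6 and matplotlib 3.10.9.

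The detection limit was a mean of 1 FPKM. Folds between libraries used FPKM + 0.1 and a limit of 2-fold. No test was run, since there is 1 condition. Depth was estimated from 7077 genes with 1 basic transcript of 800 to 4000 bp: FPKM times length, less 150 bp in S38 and 170 bp in S44 and S52, was scanned for a step of which low values are whole multiples. Of 470, 596 and 278 low values 77.2%, 74.8% and 72.7% lay within 0.15 of a whole number, beside 30% for a step that is not searched. The counts of calls and the depth search were tested on simulated data. Limits for a value of 0 are 3 fragments and cover counting error only.

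Positions, exons and windows of 51 bp came from GENCODE M21 (GRCm38), which gave 60 of 61 members a position, and promoters from RefSeq GRCm38.p6. Every detected member is named with its values, the other members by group. The counts include 1 member below the detection limit that is not reported here. Members, lists and pairings were chosen with earlier results of these data known.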

Additional observations from a re-analysis of the deposited data

How the results depend on the processing

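No paired analysis was possible because the libraries form 1 group. Rescaling each library to a sum of 1000000 shifted S44 by -0.47 and S52 by -0.30 on the log2 scale against S38. It lowered the median level of the members to 0.730 and their summed level to 470, on a scale that is no longer FPKM. Every library summed to more than 1000000 before (1.15e+06, 1.60e+06 and 1.42e+06), so the values of all genes fell. Of the 30 detected members 10 moved by more than 1 SD. With the limit left at 1 on the rescaled values, the number detected fell to 26, without *Ccl17*, *Ccl25*, *Cxcl9* and *Cxcr5*. Over all genes it fell from 11770 to 11253. The same number of members, 11, was low in S52, and *Cxcl10* took the place of *Ccl25* beside *Ccl2* as higher there. Rescaling by the median ratio moved no value by that much. Leaving out each library in turn gave 3 to 16 varying members (9.68% to 51.6%, beside 4.67% to 14.2% of detected genes), the lowest without S52. No count relative to S52 can be made without that library. The number detected was 46 at a minimum mean of 0.1 FPKM, a limit at which no share over all genes was taken. At 10 FPKM it was 12 of 61 members (19.7%), beside 6269 of the 24346 genes of the table. With that minimum 4 members varied (33.3%, beside 8.66% of genes at that level). In S52 3 were low (25%, beside 3.51%) and 0 high (beside 0.877%). With no minimum 34 varied (55.7%, beside 23.4% of the table) and 19 were low (31.1%, beside 8.13%). The median over members at 1 FPKM or above was 6.60 FPKM. With 3 libraries of unknown independence, spread is known poorly, and low values of short genes rest on few fragments (*Ccl17* in S52 on an estimated 8.8).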

Other observations

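Family members that the symbol rule does not take were described as well, with values in the order S38, S44, S52. *Ppbp* and *Pf4*, CXC ligands stored in platelets, were at 1054, 778 and 16.0 FPKM and at 329, 284 and 3.76 FPKM, lowest in S52 like the platelet genes. The scavenging receptor *Gpr182*, known from ECs, was at 67.1, 92.4 and 86.1 FPKM, within the range of the higher members. *Ccrl2*, a chemerin-binding receptor of activated ECs and leukocytes, was at 50.7, 58.3 and 33.6 FPKM and *Cmklr1*, the signalling receptor for chemerin, at 14.0, 10.7 and 16.6 FPKM.

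Of 21 genes for receptor signalling and chemokine handling in the table, 19 were detected (90.5%, beside 48.3% of all genes). Of these 19, 3 (*Rac2*, *Rgs1* and *Sdc1*) were over 2-fold lower in S52 than in both other libraries, beside 7.64% of all detected genes. *Gnai2*, the inhibitory G protein subunit through which chemokine receptors signal, was at 477, 542 and 609 FPKM, and *Dpp4*, the peptidase that inactivates CXCL12 and CXCL10 among others, was at 61.8, 64.6 and 64.0 FPKM. The sheddases of CX3CL1 and CXCL16, *Adam10* and *Adam17*, were at 37.5, 32.4 and 25.2 FPKM and at 17.4, 17.4 and 14.5 FPKM. The leukocyte genes *Dock2* (1.03, 0.518 and 0.113 FPKM) and *Pik3cg* (0.262, 0.118 and 0 FPKM) were not detected.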
